A study of Mus musculus with 4 samples.

Results

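The comparison described here asks how far a peptide that keeps estrogen receptor alpha and striatin apart changes the response of mouse aorta to estradiol. For each gene it is the log2 response to estradiol in aortas of disrupting peptide mice (DPM) minus the log2 response in wild-type (WT) aortas, and the median over all genes, 0.07, was subtracted. For genes with several probe sets the one of highest mean level was taken, and a gene was kept if its log2 level reached 5 in any of the 4 groups. That left 5152 of the 12394 genes on the array, of which 5151 could be tested. No measured difference was used to choose them, but 160 passed the minimum through 1 group alone and so had to differ. Just inside the minimum lay Dnaaf5 (highest level 5.0007, difference between responses 0.06 ± 0.16), and just outside lay Ctla2b (highest level 4.9985, difference 0.05 ± 0.47).

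The first group was DPM aorta with 10 nM beta-estradiol (E2) for 4 h, the next DPM aorta with ethanol vehicle (Veh) for the same time, and the WT groups had the same 2 treatments. DPM mice carry residues 176 to 253 of estrogen receptor alpha as a transgene driven by a CMV promoter, which is active in many cell types, so the peptide was not limited to one cell type of the vessel wall. All mice were C57BL/6 females of 12 to 14 weeks whose ovaries had been removed 1 week before, and the aortas were treated outside the body. Each sample pooled the aortas of 4 mice. The titles name 2 replicates per E2 group and 3 per vehicle group in both genotypes, whereas 1 level per group was used here. Whether all of those arrays entered the deposited errors cannot be seen from group levels. The errors recovered from the deposited p-values were 1.331 times as large for the DPM response as for the WT response. The titles name equal replicate numbers for both, and the reason for this ratio was not tested. Nothing says whether those replicates came from separate pools, and p-values then measure only the spread between arrays, which may be technical. Smooth muscle markers stood at high log2 levels in all groups (Acta2 between 13.92 and 14.05, Myh11 between 13.05 and 13.16), and endothelial markers were present (Pecam1 between 7.78 and 8.21, Vwf between 7.36 and 7.86). In such bulk tissue, fewer cells of a type and less RNA per cell cannot be told apart.

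Estrogen receptor alpha acts in the nucleus, where it binds estrogen response elements or other transcription factors, and also near the plasma membrane, where a pool of it is held with caveolin and the scaffold protein striatin and signals through G proteins to kinases such as Akt and the MAP kinases. In vascular endothelium that rapid route is best known for activating endothelial nitric oxide synthase. The interferon response genes, which hold the 3 furthest lower responses at an unadjusted p under 0.01, encode antiviral and immune proteins whose promoters carry the interferon-stimulated response element (ISRE), a binding motif of IRF family transcription factors.

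The following stretches of 250 bases before the start of 4 interferon genes, from RefSeq on GRCm38.p6, are shown because these genes had lower responses in DPM and carry that motif. Capitals mark matches to the core of the motif, 2 copies of GAAA with any 2 bases between them, which on the opposite strand reads as 2 copies of TTTC.
Ifit1 (chr19:34640639-34640888, plus strand): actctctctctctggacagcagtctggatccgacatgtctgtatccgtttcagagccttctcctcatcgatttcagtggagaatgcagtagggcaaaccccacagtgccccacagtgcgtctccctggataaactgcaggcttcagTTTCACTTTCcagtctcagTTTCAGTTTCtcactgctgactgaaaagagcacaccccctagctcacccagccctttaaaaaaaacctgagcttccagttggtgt
Ifit3 (chr19:34583279-34583528, plus strand): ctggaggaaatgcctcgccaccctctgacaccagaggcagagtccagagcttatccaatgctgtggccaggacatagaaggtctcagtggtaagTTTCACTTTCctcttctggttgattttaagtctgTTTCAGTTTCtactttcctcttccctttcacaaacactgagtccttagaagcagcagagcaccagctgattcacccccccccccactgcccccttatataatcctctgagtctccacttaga
Rsad2 (chr12:26456453-26456702, minus strand): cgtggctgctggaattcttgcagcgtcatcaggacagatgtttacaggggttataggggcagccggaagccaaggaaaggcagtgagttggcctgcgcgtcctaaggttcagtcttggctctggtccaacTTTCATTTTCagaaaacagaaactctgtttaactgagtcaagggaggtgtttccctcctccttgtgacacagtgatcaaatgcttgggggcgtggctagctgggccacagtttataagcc
Igtp (chr11:58199306-58199555, plus strand): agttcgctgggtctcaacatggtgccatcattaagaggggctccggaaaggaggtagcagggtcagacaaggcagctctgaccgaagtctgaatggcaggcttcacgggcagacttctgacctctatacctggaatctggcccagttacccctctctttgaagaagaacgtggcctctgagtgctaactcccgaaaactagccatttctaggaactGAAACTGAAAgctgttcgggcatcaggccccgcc
Ifit1 and Ifit3 held 2 matches each, at positions -104 and -85 relative to the start in Ifit1 (first base of the match) and at -156 and -122 in Ifit3, while Rsad2 held 1 at -120 and Igtp 1 at -34. Of the 17 interferon response genes kept, 13 had a promoter in the table (250 bases before to 50 after the start), and 9 of these 13 (69.2%) held a match. The same motif was found in 3.44% of all 32851 promoters and in 3.5% of the 4189 matched genes kept. The promoters of Ifit2 and Oasl2 held no match in this window. The full estrogen response element, GGTCA and TGACC with any 3 bases between them, occurred in 0.07% of all promoters and in 0 of the 13, and the AP-1 motif TGANTCA in 7.81% of all promoters and in 6 of the 13; none of the 3 motifs contains another. These matches describe the reference sequence and are not measured binding.

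No gene passed a Benjamini-Hochberg adjusted p of 0.05 in limma's moderated test as recovered from the deposited values (0% of 5151), and the smallest adjusted p was 0.389. An unadjusted p under 0.05 was reached by 184 genes (3.57%), of which 88 (1.71%) had a higher and 96 (1.86%) a lower response in DPM than in WT. Under 0.01 there were 17 in each direction (0.33% each). At 1.5-fold, 135 genes (2.62%) were higher and 193 (3.75%) lower, and at 2-fold 20 (0.388%) were higher and 57 (1.11%) lower. Without centring the split at an unadjusted p under 0.05 was 163 higher and 53 lower. The genes below are therefore given as differences with their errors, none of them past the adjusted threshold. The standard error (SE) of the difference had a median of 0.25 over genes, so that the median gene needed 1.52-fold to reach an unadjusted p of 0.05. The number of arrays limits this precision.

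The measured responses of the 2 genotypes were only weakly correlated over genes. The median SE of a gene's response was 0.20 in DPM and 0.15 in WT. These stand in a ratio of 1.331 that was taken as the same for every gene, so it does not show that single genes varied more in DPM. The part of these errors in the weak correlation was not tested. The SD of the log2 response over genes was 0.31 in DPM and 0.22 in WT, and across the 5151 genes, which are not independent and share arrays and processing, Pearson's r between the responses was 0.135 and Spearman's rho 0.097. Among the 34 genes at an unadjusted p under 0.01, 29 (85.3%) moved in opposite directions in DPM and WT, against 47% of all genes tested. Of the 17 with a lower response in DPM, 14 were lower with E2 in DPM and higher with E2 in WT. The other 3 were higher with E2 in both. Gas6 and Mast2 rose by less in DPM. Eif4enif1, looked up after its values were seen, hardly moved (0.0054 in DPM and 0.0032 in WT) and fell below 0 only through centring. Of the 17 with a higher response in DPM, 15 were higher with E2 in DPM and lower with E2 in WT. Responses that oppose each other give larger differences, so this share only describes how the differences are made up.

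**Figure D1:**
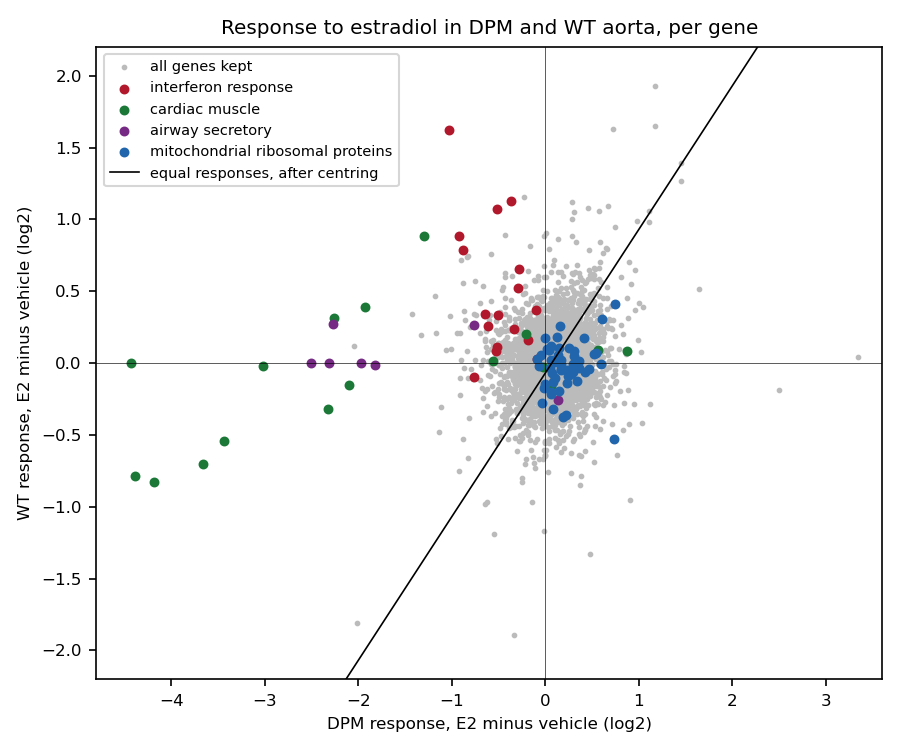
Each point is a gene kept, with its log2 response to E2 in DPM aorta on the x axis and in WT aorta on the y axis, uncentred; the line marks equal responses after centring. The 17 interferon response genes (red) lie left of 0, 16 of them above 0 on the y axis, the cardiac muscle (green) and airway secretory (purple) genes spread far to the left, and 46 of 58 mitochondrial ribosomal protein genes (blue) lie on the side of higher responses in DPM.

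The DPM vehicle group also stood apart in genes of other tissues. Nppa, which encodes atrial natriuretic peptide, had a level of 2.38 in DPM with E2 and 6.81 with vehicle, while both WT groups were no more than 0.05 above 2.29, the array's lowest level. The atrial light chain gene Myl7 had levels of 2.83 and 7.21 in the same DPM groups, against 2.31 and 3.10 in WT. Of the 17 cardiac muscle genes kept, 12 were highest in DPM vehicle, beside 862 of all 5152 genes, and 9 passed the minimum through 1 group alone. The median difference was -2.25, or -1.08 over all 36 cardiac genes on the array whatever their level. Of the 6 kept genes that reached the minimum in all groups, 3 were lower and 3 higher, with a median of 0.04. Tcap, the titin cap gene, was the furthest lower of these at -2.25 ± 1.19, and Cox7a1 the furthest higher at 0.72 ± 0.63. Another 2 probe sets of Hspb7, a heat shock protein gene of heart muscle, stood at -2.12 ± 2.06 and -1.73 ± 1.34, beside -0.48 ± 0.71 for its main one. Over all 36 cardiac genes on the array the log2 of the summed level was 12.39 in DPM with E2 and 12.62 with vehicle, against 12.43 in WT with E2 and 12.48 with vehicle, and 10, 5, 11 and 9 of them, in that order, were no more than 0.05 above the array's lowest level. Gja1, at levels between 11.61 and 11.87, leads the summed level. Errors were wide. Nppa (-4.49 ± 1.73) and Tnni3 (-3.07 ± 1.26), the cardiac troponin I gene, were the cardiac genes with an unadjusted p under 0.05, downwards beside 1.86% of all genes. With E2 in DPM both lay near the lowest level, so their sizes are uncertain.

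Secretory genes of the airway lining, a list whose members were looked at after their values were seen, were also mostly highest in DPM vehicle. The club cell secretoglobin gene Scgb1a1 had levels of 4.61 in DPM with E2 and 6.43 with vehicle, against 2.31 and 2.32 in WT. It was thus higher in both DPM groups than in WT, and its difference of -1.87 ± 4.18 had a wide error. Of 7 such genes kept, 6 passed the minimum through 1 group alone and 6 were highest in DPM vehicle, beside 862 of all 5152 genes. The median difference was -2.04 with 0 at an unadjusted p under 0.05. Over all 17 airway genes on the array the log2 of the summed level was 8.02 in DPM with E2 and 9.07 with vehicle, against 7.64 and 7.75 in WT. The part of this in any other result was not tested.

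**Figure D2:**
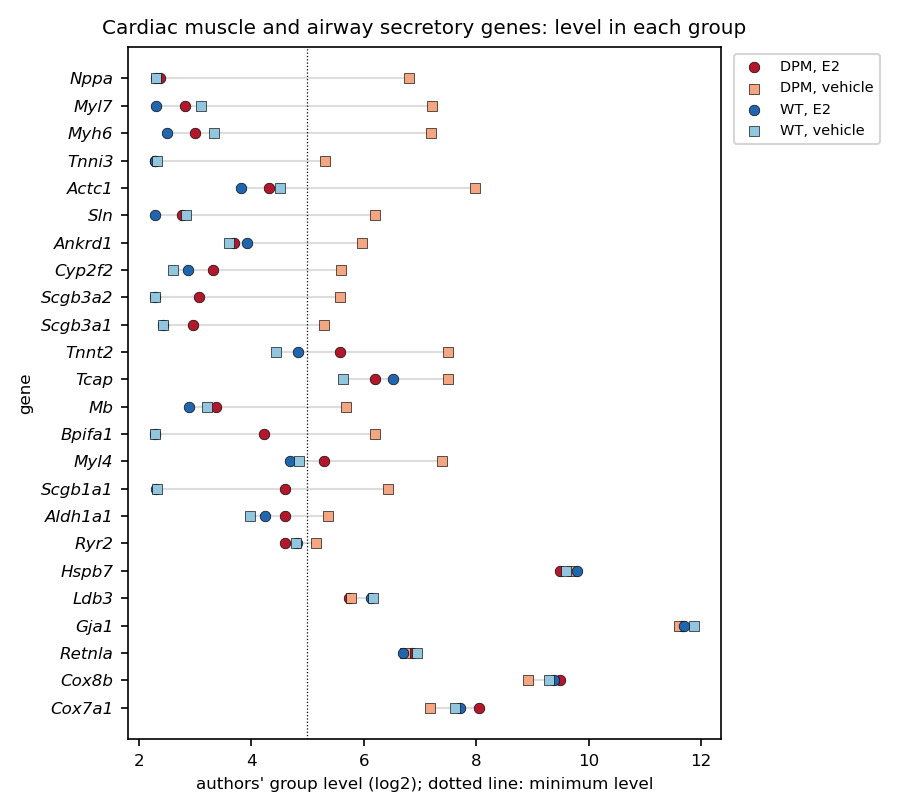
Log2 group levels (x axis) of the cardiac muscle and airway secretory genes kept, 1 row per gene, with circles for E2, squares for vehicle, red shades for DPM and blue shades for WT; the dotted line is the minimum level of 5. DPM vehicle stands at the right in 12 of the 17 cardiac and 6 of the 7 airway genes.

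The array's own controls differed as well. All 18 hybridization control probe sets, which report RNAs added in the laboratory, had a lower DPM than WT response, with a median difference of -0.56 (-0.47 within DPM and 0.02 within WT) and 0 at an unadjusted p under 0.05 by the recovered limma test. They report bioB, bioC, bioD and cre, each through several probe sets on the same arrays, so they are not 18 independent readings. Of the RNA quality controls, the 5′ end of Gapdh stood at -1.83 ± 1.39, its middle at -0.99 ± 0.75 and its 3′ end at 0.07 ± 0.13. The 5′ end of beta-actin stood at -0.24 ± 0.49. Their part in the results that follow was not tested.

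Interferon response genes had lower responses in DPM as a group. All 17 genes kept, of 33 on the array, were below 0, with a median difference of -0.92, against 0.00 for all genes, and the median over all 33 without a minimum level was -0.54. Of the 17 kept, 9 had an unadjusted p under 0.05 downwards beside the 1.86% of all genes; 0 passed the adjusted threshold. This direction was known when the list was made. In DPM 17 of 17 were at a lower level with E2 than with vehicle (median -0.51), whereas in WT 16 of 17 were at a higher level with E2 (median 0.34). Of all 5152 genes, 1757 were lower with E2 in DPM and 2667 higher with E2 in WT.

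Ifit1, an antiviral protein gene that binds foreign RNA ends, stood at 5.60 in DPM with E2 and 6.62 with vehicle, against 6.02 in WT with E2 and 4.39 with vehicle. Its difference between responses was -2.72 ± 0.80 (unadjusted p = 0.0129), the furthest of the list. The WT groups lay further apart than the DPM groups, and WT vehicle was the low one.

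Ifit3, a partner of Ifit1 in the same gene cluster, had levels of 6.32 in DPM with E2 and 7.25 with vehicle, against 6.70 in WT with E2 and 5.82 with vehicle, and a difference of -1.88 ± 0.48 (unadjusted p = 0.00665). Rsad2, which encodes viperin, an enzyme that makes a chain-terminating nucleotide, had levels of 6.42 and 7.31 in DPM, with E2 and vehicle in that order, against 6.99 and 6.20 in WT, and a difference of -1.74 ± 0.38 (unadjusted p = 0.00335). The other 2 probe sets of Rsad2 stood at -1.42 and -2.32. In both genes the groups were ordered DPM vehicle, WT with E2, DPM with E2 and WT vehicle, from high to low.

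Ifit2 was at 5.41 in DPM with E2 and 5.78 with vehicle, against 5.81 in WT with E2 and 4.68 with vehicle, with a difference of -1.57 ± 0.40 (unadjusted p = 0.00658). In this gene 3 groups lay close together and WT vehicle was apart. Rtp4, which encodes a receptor transporter protein, followed the same pattern with -1.0 ± 0.33, and Parp14, an ADP-ribosyltransferase gene, with -0.89 ± 0.33, both at an unadjusted p under 0.05.

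The guanylate binding protein genes Gbp3 and Gbp6 and the immunity-related GTPase gene Igtp, which act against pathogens inside cells and answer mainly to interferon gamma, were the other 3 with an unadjusted p under 0.05. Gbp6 stood at 4.58 in DPM with E2 and 5.34 with vehicle, against 4.56 in WT with E2 and 4.66 with vehicle. Its difference of -0.73 ± 0.26 came from the DPM vehicle group, which was apart on the high side in Gbp3 (-0.69 ± 0.29, unadjusted p = 0.0495) and Igtp (-0.64 ± 0.23) too. Gbp3, Gbp6 and Oasl2 passed the minimum level through that group alone, and Gbp3 lost its call without centring and after quantile normalization.

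The remaining 8 genes had differences between -1.66 and -0.19 without reaching an unadjusted p of 0.05. They were Oasl2 (-1.66 ± 0.77), an oligoadenylate synthetase-like gene, Iigp1 (-1.06 ± 0.57), Cxcl10 (-0.94 ± 0.55), a chemokine gene for T cells, the tetherin gene Bst2 (-0.92 ± 0.66), Gbp2 (-0.68 ± 0.32), Irgm1 (-0.54 ± 0.36), Ifi35 (-0.42 ± 0.38) and the immunoproteasome gene Psmb8 (-0.19 ± 0.35). A second probe set of Iigp1 stood at -1.27 with an unadjusted p of 0.0269. Of the 16 interferon genes on the array that stayed below the minimum, Eif2ak2, which encodes the kinase PKR, differed by -1.09 ± 0.53, Usp18 by -0.66 ± 0.37 and Ifih1, an RNA sensor gene, by -0.51 ± 0.36. Oasl1 was the single one above 0 at 0.03 ± 0.10, and several of the others, such as Mx2 at -0.08, lay near the 0.07 that centring removed.

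Between genotypes, levels in the vehicle groups were higher in DPM than in WT for 17 of 17 interferon genes, with a median log2 difference of 0.73 against -0.03 for all genes. Among them Gbp3, Gbp6 and Oasl2 passed the minimum through DPM vehicle alone, so the direction was fixed for these 3. With E2 the levels of the 17 genes were higher in DPM for 5 and lower for 12, with a median of -0.18 against 0.04. Over all 33 interferon genes on the array, whatever their level, the log2 of the summed level was 10.92 in DPM vehicle and 10.15 in WT vehicle. With E2 it was 10.41 in DPM and 10.53 in WT. DPM vehicle was the highest group in 15 of the 17, beside 862 of all 5152 genes. WT vehicle was the lowest in 13, beside 1308 of all 5152. In the 11 genes at or above the minimum in all groups, the response in DPM was lower in 11, and their median was -0.89. Differences between genotypes within a treatment were not tested. The DPM vehicle group was also the highest one in 12 of the 17 cardiac genes and 6 of the 7 airway genes, and the part of this in the interferon values was not tested.

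**Figure D3:**
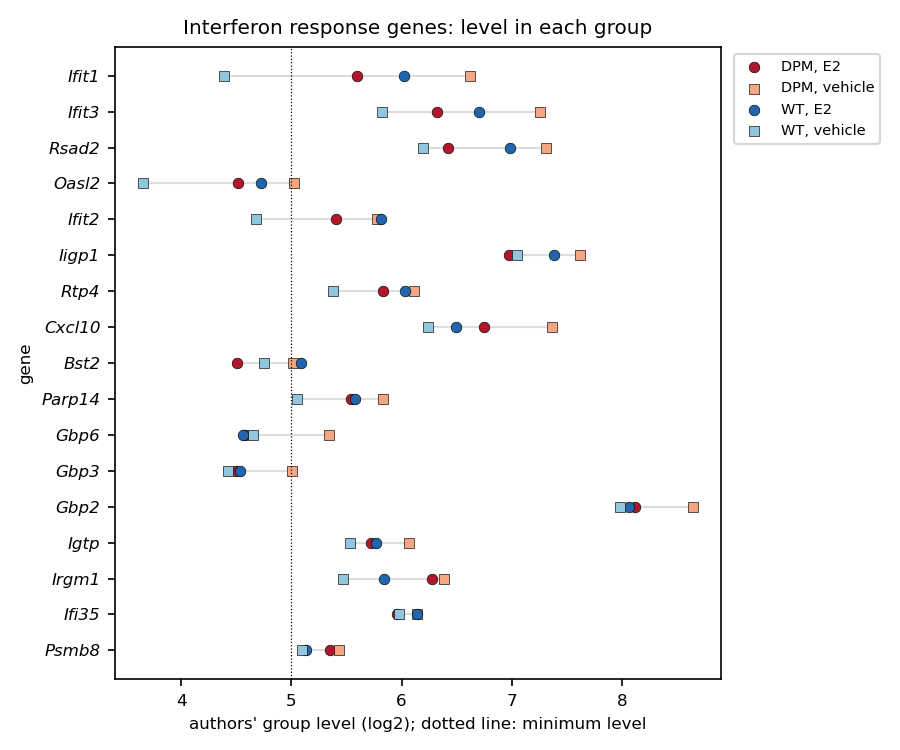
Log2 group levels (x axis) of the 17 interferon response genes kept, ordered by their difference between responses, with circles for E2, squares for vehicle, red shades for DPM and blue shades for WT; the dotted line is the minimum level of 5. DPM vehicle (light red squares) is the highest group in 15 genes and WT vehicle (light blue squares) the lowest in 13.

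The genes that carry interferon signals showed no such shift. Of 13 receptor, kinase and transcription factor genes kept, 4 lay above and 9 below 0, with a median of -0.12 and 0 at an unadjusted p under 0.05. Irf1, a transcription factor gene that is itself induced by interferon, stood at -0.51 ± 0.32 and Stat3 at -0.48 ± 0.44. The receptor gene Ifnar2 stood at -0.13 ± 0.22, the kinase genes Jak1 and Jak2 at -0.01 ± 0.17 and 0.23 ± 0.24, and Irf9 at 0.00 ± 0.29. The feedback inhibitor gene Socs3 was at 0.02 ± 0.18, with other probe sets at -0.37 and -0.08.

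Endothelial genes mostly had lower responses in DPM. Of 22 kept, 17 were lower and 5 higher, with a median of -0.45; 3 had an unadjusted p under 0.05, all downwards, beside 1.86% of all genes. The median response was -0.09 in DPM and 0.22 in WT. In the 19 genes at or above the minimum in all groups, 16 were lower. The log2 of the summed level over all 32 endothelial genes on the array was 14.22 in DPM with E2 and 14.06 with vehicle, against 14.21 in WT with E2 and 14.20 with vehicle, a sum that Fabp4, shared with adipocytes, leads.

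Flt1, which encodes a VEGF receptor that also limits VEGF action, had levels of 4.60 in DPM with E2 and 5.48 with vehicle, against 5.35 in WT with E2 and 4.99 with vehicle. The difference was -1.30 ± 0.26 (unadjusted p = 0.00193). The adhesion gene Icam2 stood at 6.29 in DPM with E2 and 6.31 with vehicle, against 6.67 in WT with E2 and 5.99 with vehicle, and differed by -0.76 ± 0.22 (unadjusted p = 0.0117). In Flt1 the DPM groups were further apart than the WT groups, and in Icam2 the DPM groups were level while the WT groups were apart. S1pr1, the receptor for sphingosine 1-phosphate that tightens endothelial junctions, differed by -0.53 ± 0.19.

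Most other endothelial genes lay on the same side without reaching an unadjusted p of 0.05. Eng, a co-receptor for TGF-beta ligands, stood at -0.97 ± 0.47, the junction gene Pecam1 at -0.89 ± 0.45, the phosphatase gene Ptprb at -0.78 ± 0.47, Ramp2 at -0.60 ± 0.37 and the von Willebrand factor gene Vwf at -0.56 ± 0.24 (unadjusted p = 0.0528). Tek, the angiopoietin receptor gene, was at -0.53 ± 0.28, and Nos3, which encodes endothelial nitric oxide synthase, at -0.44 ± 0.31. Esam, Egfl7, Plvap and Cldn5 stood between -0.50 and -0.39, Cdh5 at -0.23 ± 0.51, Cd34 at -0.10 and Procr at -0.06. The 5 above 0 were Emcn (0.36 ± 0.28), Thbd (0.24), Aqp1 (0.20), Kdr (0.16 ± 0.81) and Fabp4 (0.15). Of the 10 endothelial genes with a promoter in the table, 0 held an ISRE.

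Among genes at an unadjusted p under 0.01 outside the interferon and endothelial lists, the furthest lower response was that of Sfrp1, a secreted inhibitor of Wnt signalling. It stood at 5.67 in DPM with E2 and 5.89 with vehicle, against 6.31 in WT with E2 and 5.15 with vehicle, a difference of -1.45 ± 0.30 (unadjusted p = 0.00257). Gas6, a ligand of the TAM receptors Tyro3, Axl and Mer, stood at 9.71 in DPM with E2 and 9.57 with vehicle, against 9.91 in WT with E2 and 9.28 with vehicle, and differed by -0.57 ± 0.14 (unadjusted p = 0.00478). Both genes had been placed in the estrogen response list with their differences known. Of the 17 genes of that list, 6 were higher and 11 lower, with a median of -0.12. Sfrp1 and Gas6 were the 2 with an unadjusted p under 0.05, downwards beside 1.86% of all genes.

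Mast2, a microtubule-associated kinase gene, was at 7.72 in DPM with E2 and 7.39 with vehicle, against 8.29 in WT with E2 and 7.44 with vehicle, a difference of -0.59 ± 0.11 (unadjusted p = 0.00167). Its WT group with E2 stood apart on the high side, as it did for Wwc2 (-0.61 ± 0.10), a relative of the Hippo pathway gene Kibra, and Armcx3 (-0.62 ± 0.17), a mitochondrial transport gene. The last 2 rest on 1 probe set each, since other probe sets stood at -0.26 and -0.03 for Wwc2 and at 0.63 for Armcx3. Further lower responses at an unadjusted p under 0.01 were those of Znfx1 (-0.72 ± 0.20), an RNA helicase gene linked to antiviral defence, the chromatin gene Baz2a (-0.72 ± 0.20) and the clathrin adaptor gene Ap1s1 (-0.65 ± 0.18).

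**Figure D4:**
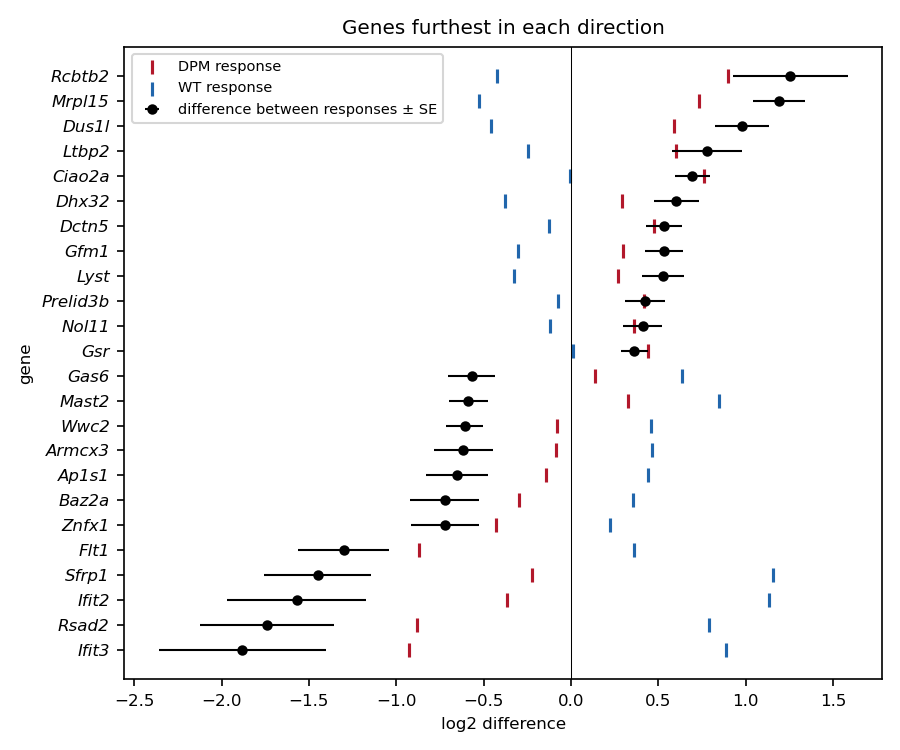
The 12 genes furthest in each direction among those at an unadjusted p under 0.01, with the centred difference between responses (black, bars ± SE) and the uncentred log2 responses to E2 in DPM (red) and WT (blue). In 21 of the 24 genes, all but Gas6, Mast2 and Gsr, the DPM and WT marks lie on opposite sides of 0.

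Immediate early and kinase-responsive genes, which are switched on within minutes of kinase signalling, lay mostly on the lower side. Of 36 kept, 8 had a higher and 28 a lower response in DPM; the median was -0.20, beside a median response of 0.03 in DPM and one of 0.18 in WT. An unadjusted p under 0.05 was reached by 3 of the 36, all lower, beside 1.86% of all genes. Fosl2, an AP-1 subunit gene, had levels of 5.27 in DPM with E2 and 5.39 with vehicle, against 5.60 in WT with E2 and 5.02 with vehicle, a difference of -0.77 ± 0.28. Another AP-1 gene, Jund, differed by -0.48 ± 0.19 and the zinc finger gene Egr1 by -0.27 ± 0.11; neither kept that p without centring or after quantile normalization. Junb (-1.22 ± 1.07), Fosb (-0.82 ± 0.40) and Jun (-0.43 ± 0.31), looked up after their values were seen, did not reach it. Nor did Nfil3 (0.79 ± 0.34) and Rgs2 (0.55 ± 0.64), the furthest on the higher side, looked up in the same way.

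The parts of the pathway that the peptide targets showed no common direction. Of 29 genes for the receptor, striatin complex and rapid signalling, 14 were higher and 15 lower, with a median of -0.02 that turned to 0.05 without centring, and 0 had an unadjusted p under 0.05. Cav1, which encodes caveolin 1, had levels of 11.60 in DPM with E2 and 11.49 with vehicle, against 11.57 in WT with E2 and 11.72 with vehicle, and differed by 0.19 ± 0.19. Esr1 stood between 2.31 and 2.33 and Esr2 at 2.29 in all groups, at the lowest levels of the array, and Strn stood between 3.09 and 3.33, so a difference in these genes was not measurable here. Whether the Esr1 probe set lies within the transgene was not analysed here. Pik3r1, a regulatory subunit gene of PI3 kinase named after its value was seen, stood at -0.64 ± 0.28 (unadjusted p = 0.0588). Dusp14, a phosphatase gene that acts on MAP kinases, differed by -0.51 ± 0.17 at an unadjusted p under 0.05. It was the 1 such gene of 17 in the Ras and MAP kinase feedback list, beside 1.86% of all genes downwards.

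On the higher side, most genes of mitochondrial translation had small differences. Of 58 mitochondrial ribosomal protein genes kept, 46 had a higher and 12 a lower response in DPM (median 0.15); 6 had an unadjusted p under 0.05, all upwards, beside 1.71% of all genes. The median response was 0.16 in DPM and -0.01 in WT. Mrps22 (0.53 ± 0.21), Mrps18b (0.49 ± 0.19) and Mrps24 (0.44 ± 0.16), small subunit genes, were among the 6, as was the large subunit gene Mrpl22 (0.30 ± 0.05), named after its value was seen. A second probe set of Mrps24 stood at 0.19, and the mean of both missed that p. Mrpl15 had the smallest p of the whole comparison, with levels of 6.47 in DPM with E2 and 5.74 with vehicle, against 5.70 in WT with E2 and 6.23 with vehicle, and a difference of 1.19 ± 0.15 (unadjusted p = 0.00014). Its other 3 probe sets stood at -0.11, -0.05 and 0.14, so that value rests on 1 probe set. Gfm1, a mitochondrial translation elongation factor gene, differed by 0.53 ± 0.11 (unadjusted p = 0.00229).

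Nuclear genes of the respiratory chain and ATP synthase lay on the same side, with 58 of 74 higher, a median of 0.10 and 0 at an unadjusted p under 0.05. Of 15 genes for iron-sulfur assembly and heme, 14 were higher, with a median of 0.14. Ciao2a, a cytosolic iron-sulfur assembly gene, had levels of 6.09 in DPM with E2 and 5.33 with vehicle, against 5.38 in WT with E2 and 5.39 with vehicle, and a difference of 0.69 ± 0.10 (unadjusted p = 0.000302). Its DPM group with E2 stood apart and the other 3 groups were level, and a second probe set stood at 0.43. Isca1, a mitochondrial gene of the same kind, differed by 0.21 ± 0.08 at an unadjusted p under 0.05, but its other probe set stood at 0.07 and the mean of both missed that p. Genes for cytosolic ribosomal proteins leaned the other way, with 15 of 39 higher and 24 lower and a median of -0.04. An unadjusted p under 0.05 was reached by 2, Rpl35 (-0.20 ± 0.07) and Rps24 (-0.14 ± 0.06), downwards, beside 1.86% of all genes. Neither kept it without centring or with the mean over probe sets.

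Of 25 genes for tRNA modification and aminoacyl-tRNA synthetases, 20 were higher, with a median of 0.13. Dus1l, a tRNA dihydrouridine synthase gene, had levels of 5.0 in DPM with E2 and 4.41 with vehicle, against 4.76 in WT with E2 and 5.21 with vehicle, and a difference of 0.98 ± 0.15 (unadjusted p = 0.000534). It was the 1 gene of its list with an unadjusted p under 0.05, beside 1.71% of all genes upwards. Each of Ciao2a, Dus1l and the dynactin subunit gene Dctn5 had been placed in its list with its difference known.

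Rcbtb2, which encodes a protein with RCC1 and BTB domains, had the furthest higher response among genes at an unadjusted p under 0.01. It stood at 6.11 in DPM with E2 and 5.21 with vehicle, against 5.78 in WT with E2 and 6.21 with vehicle, a difference of 1.25 ± 0.33 (unadjusted p = 0.00765). Ltbp2, which encodes a protein of elastic fibre microfibrils, was at 6.39 in DPM with E2 and 5.79 with vehicle, against 5.66 in WT with E2 and 5.91 with vehicle, and differed by 0.78 ± 0.20. In Ltbp2 the DPM group with E2 was the high one, and in Rcbtb2 the DPM vehicle group was the low one. Dhx32 (0.60 ± 0.13), an RNA helicase gene, Dctn5 (0.53 ± 0.10), Lyst (0.53 ± 0.12), a lysosome trafficking gene, Prelid3b (0.43 ± 0.11), Nol11 (0.41 ± 0.11), a ribosome biogenesis gene, and the glutathione reductase gene Gsr (0.36 ± 0.08, or 0.30 at a second probe set) completed the 12 furthest. Siah1a, a ubiquitin ligase gene outside the 12 that was looked up for its small p, differed by only 0.10 ± 0.01, with levels of 6.20 in DPM with E2 and 6.04 with vehicle, against 6.04 in both WT groups.

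In the vessel wall itself, 24 smooth muscle contractile genes had a median of -0.06, 7 of them higher and 17 lower, and 0 reached an unadjusted p of 0.05. Among 45 extracellular matrix genes 21 were higher and 24 lower, with a median of -0.01. Ltbp2 and Prg4 had an unadjusted p under 0.05, both upwards, beside 1.71% of all genes. Prg4, which encodes the lubricating protein lubricin, stood at 7.34 in DPM with E2 and 7.35 with vehicle, against 6.33 in WT with E2 and 7.50 with vehicle, a difference of 1.09 ± 0.38 that came from the WT group with E2. Kcnj8, the pore subunit gene of the vascular ATP-sensitive potassium channel, had levels of 5.72 in DPM with E2 and 4.70 with vehicle, against 5.15 and 5.08 in WT, and differed by 0.88 ± 0.32. The cation channel gene Trpv2 differed by -0.36 ± 0.14 in the same channel list of 14. Kcnj8 and Trpv2 had an unadjusted p under 0.05, beside 3.57% of all genes in either direction. All 10 Notch pathway genes were lower, between -0.53 and -0.04, with a median of -0.15 and 0 at an unadjusted p under 0.05, and of 14 genes for endothelin, angiotensin and nitric oxide signalling 11 were lower, with a median of -0.18 and also 0.

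**Figure D5:**
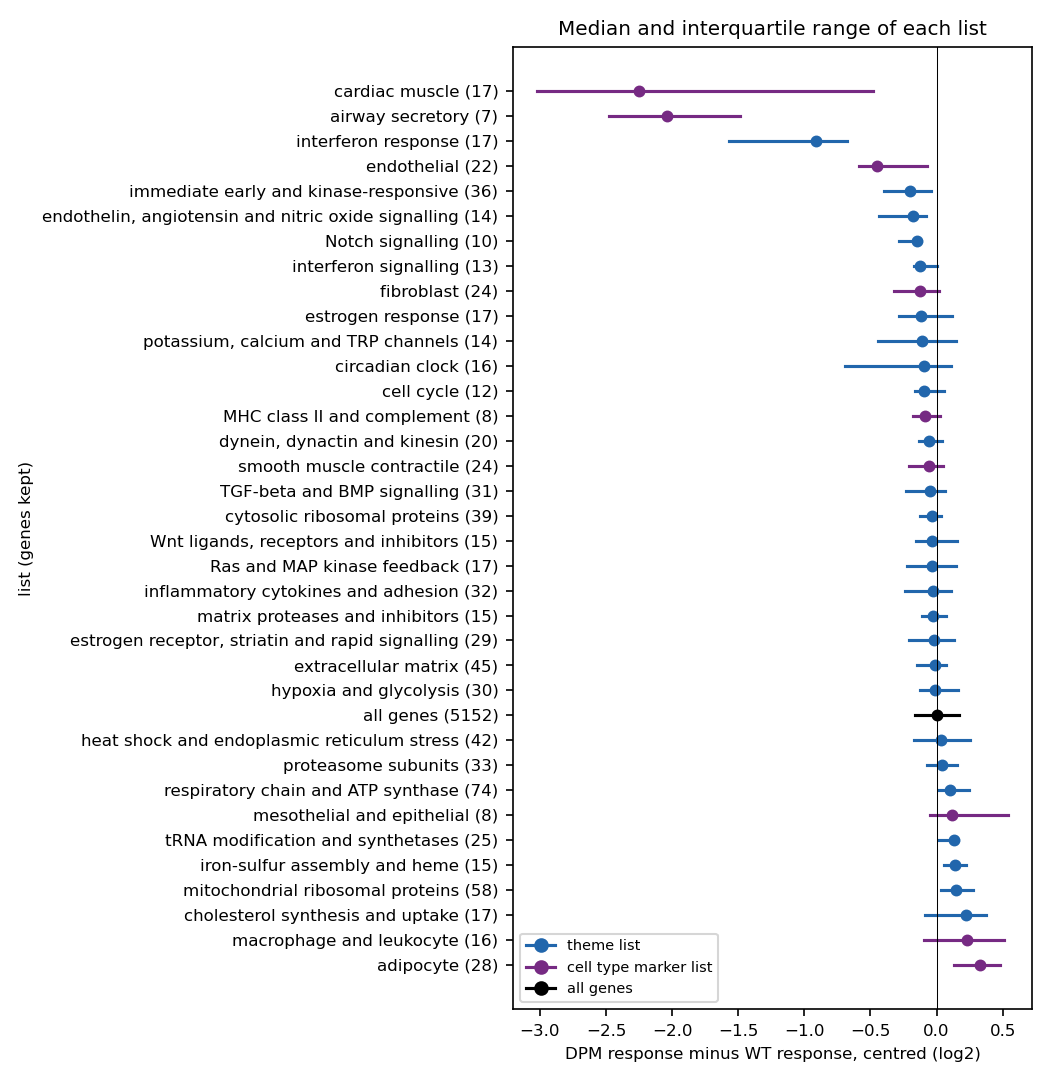
Median (point) and interquartile range (bar) of the centred difference between responses in log2 for each gene list with 7 or more genes kept, ordered by median, with theme lists in blue, cell type marker lists in purple and all 5152 genes in black. The cardiac, airway, interferon and endothelial lists lie furthest to the left, at -2.25, -2.04, -0.92 and -0.45, and the adipocyte list furthest to the right at 0.33.

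Marker lists of other cell types moved in this comparison too. Of 28 adipocyte genes 23 were higher, with a median of 0.33 and 0 at an unadjusted p under 0.05; the log2 of the summed level over the 34 on the array was 14.96 in DPM with E2 and 14.68 with vehicle, against 14.90 in WT with E2 and 14.97 with vehicle. Of 16 macrophage and leukocyte genes 11 were higher, with a median of 0.23, but 4 of the 16 passed the minimum through 1 group alone and the median was 0.04 in the 11 that reached it in all groups. The leukocyte tetraspanin gene Cd53, with 6.44 in DPM with E2 and 5.41 with vehicle against 5.20 in WT with E2 and 5.62 with vehicle, differed by 1.38 ± 0.49 at an unadjusted p under 0.05. The B cell gene Ighm, chosen after its value was seen, stood at 7.36 in DPM with E2 and near 4 in the other 3 groups, for a difference of 3.23 ± 2.18. The keratin gene Krt18 (0.81 ± 0.25) and Ezr (0.63 ± 0.24), which encodes ezrin, had an unadjusted p under 0.05 among 8 mesothelial and epithelial genes, 4 of them higher. The share of all genes higher at that p was 1.71%. The 24 fibroblast genes had a median of -0.12, with 7 higher and 17 lower. How far the make-up of the pooled aortas takes part in the other lists was not tested.

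Among the other lists were cholesterol synthesis and uptake (12 of 17 higher, median 0.22), hypoxia and glycolysis (15 of 30 higher, median -0.01), inflammatory cytokines and adhesion (14 of 32 higher, median -0.03) and heat shock and endoplasmic reticulum stress (22 of 42 higher, median 0.04). In the last 2, the interleukin 17 receptor gene Il17ra (0.48 ± 0.19) and the chaperone genes Hspe1 (0.21 ± 0.08) and Canx (0.20 ± 0.07) were higher at an unadjusted p under 0.05. Each of these 3 lost that p with the mean over probe sets, since other probe sets stood at 0.15, 0.08 and 0.11. Psma4 (0.37 ± 0.14) was the 1 such gene of 33 for proteasome subunits, and H2ac19 (-0.34 ± 0.14) the 1 of 5 histone genes. Of all genes, 1.71% were higher and 1.86% lower at that p. The lists for Wnt signalling (6 of 15 higher, median -0.04), TGF-beta and BMP signalling (12 of 31, median -0.05), Ras and MAP kinase feedback (8 of 17, median -0.04), matrix proteases (6 of 15, median -0.03), dynein, dynactin and kinesin (6 of 20, median -0.06), cell cycle (5 of 12, median -0.09), MHC class II and complement (2 of 8, median -0.08) and proteasome subunits (20 of 33, median 0.04) stayed near the median of all genes. Of the nerve list 3 genes were kept, all lower, of the blood cell list 4, with 2 lower, and of the skeletal muscle list 1, at 0.18. Of 16 circadian clock genes 6 were higher and 10 lower, none of them (0) at an unadjusted p under 0.05 by the recovered limma test; the repressor gene Nr1d1 stood at -1.72 ± 0.79, Dbp at -1.68 ± 1.75 and Arntl at 1.05 ± 1.26, genes chosen after their values were seen. DPM vehicle was the highest of the 4 groups for Nr1d1 and Dbp and the lowest for Arntl, a gene that runs in the opposite phase.

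The group that stood apart from the others was counted for each direction of the difference. A group was said to stand apart where its gap to the nearest other group exceeded the range of the other 3. Among the 193 genes lower by 1.5-fold or more, DPM vehicle stood apart on the high side in 55, DPM with E2 on the low side in 33, WT vehicle on the low side in 20 and WT with E2 on the high side in 13, and no group did in 72. Among the 135 genes higher by 1.5-fold or more, DPM vehicle was apart on the low side in 32, DPM with E2 on the high side in 24, WT vehicle on the high side in 10 and WT with E2 on the low side in 6, and no group in 63. Of the 17 higher genes at an unadjusted p under 0.01, DPM with E2 was apart in 9, DPM vehicle in 3 and a WT group in 0, while of the 17 lower genes DPM with E2 was apart in 2, DPM vehicle in 1, WT with E2 in 3 and WT vehicle in 1. Among all 2576 genes above 0, DPM with E2 was apart on the high side in 563, DPM vehicle on the low side in 535, WT vehicle on the high side in 291 and WT with E2 on the low side in 177. Among all 2575 genes below 0, DPM vehicle was apart on the high side in 225, DPM with E2 on the low side in 263, WT vehicle on the low side in 294 and WT with E2 on the high side in 212. Of all 5152 genes kept, 160 passed the minimum through 1 group alone, which favours that group standing apart on the high side. Nppa, Myl7 and Scgb3a2 are genes of this kind among the 55 above. The counts were not repeated without such genes and were not tested.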

How the data were processed

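RNA of 4 groups of pooled aortas was hybridized to Affymetrix mouse oligonucleotide arrays. The deposited group levels are log2 values, 1 per group and probe set, and GCRMA and limma are named in the submitters' processing notes with neither version nor role. In addition, the authors' deposited table gives log2 differences and, per the file headers, the unadjusted p-value of each. Steps not given in the sources used here include the background settings and the build.

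Of 22690 probe sets, 20393 had 1 gene symbol, 691 several and 1606 none in the platform annotation; the last 2 kinds were left out of the gene table. The standard errors (SE) behind the deposited p-values were recovered from the folds and p: over 9823 probe sets the errors of the 3 deposited contrasts kept 1 ratio at 6.44 degrees of freedom, the SE of the difference being 1.6648 times that of the WT response. The centred difference was tested with that error and adjusted by Benjamini-Hochberg over 5151 genes. D230025D16Rik, with equal levels in all groups, had no error. The recovered p-values matched the deposited ones within 5.7e-05, and the procedure was tested on simulated data. Values after ± are these SE, and differences are log2 values. Python 3.11.15 with numpy 2.4.6, pandas 2.3.3 and scipy 1.17.1 was used.

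The gene lists, their members and the comparison were chosen with earlier results of these data known. Named genes are first the 12 furthest in each direction at an adjusted p under 0.05, filled up from an unadjusted p under 0.01. Next come up to 4 members of each list with the largest size at an unadjusted p under 0.05. All members kept of the interferon response and endothelial lists are named too, with Esr1, Esr2, Strn, Cav1 and Nos3. Of the interferon signalling and cardiac muscle lists only some members are named. Other genes are said to be chosen after their values were seen. Lists are described by counts and medians. Alternatives were no centring, quantile normalization, the mean over probe sets, other minimum levels, 6 degrees of freedom, the second deposited table of levels, a fold of 2 and an unadjusted p of 0.05 for the pattern of responses; leaving out the cardiac and airway lists, and list medians without a minimum level, were added after seeing the data.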

Additional observations from a re-analysis of the deposited data

Results flagged for a closer look

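The hybridization controls, which report RNAs added in the laboratory and no gene of the aorta, had a median difference between the DPM and WT responses of -0.56, between -0.73 and -0.21 over the 18 probe sets. They were singled out because they lie outside the gene table and yet lean 1 way. Several of the 18 report the same added RNA on the same arrays, so they are not independent readings. With E2 and vehicle the response was -0.47 in DPM and 0.02 in WT, and 0 of the 18 had an unadjusted p under 0.05 by the recovered limma test.

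Probe sets without a single gene symbol were left out of the gene table. Of 703 that reached the minimum level, 21 (2.99%) had an unadjusted p under 0.05 and 4 had one under 0.01, which is the signal that put them here; among the 5151 genes tested the share under 0.05 was 3.57%. Their genes are not named here.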

How the results depend on the processing

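No paired analysis was possible because each group has 1 level, in which the replicates named in the titles are already combined; for the same reason no replicate could be left out. Signal over background limits low genes: the SD of the difference was 0.56 in the fifth of genes with the lowest mean level and 0.22 in the fifth with the highest.

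The count at an adjusted p under 0.05 was 0 except without centring, where it was 1 (Siah1a), and with a minimum level of 4, where it was 2 (Cysrt1 and Dlg3). At an unadjusted p under 0.05, 163 genes were higher and 53 lower without centring, 232 were higher with no minimum level and 63 lower with a minimum of 6. At 1.5-fold, 60 were higher and 126 lower with a minimum of 6, 84 higher and 128 lower with the minimum in all groups, and 308 higher with no minimum; at 2-fold there were 20 and 57. The other 39 counts stayed within 1.5 times, those without the cardiac and airway lists included. Opposed responses made up 77.2% at an unadjusted p under 0.05. Those genes include the 34 at an unadjusted p under 0.01 and are chosen on the same difference, so this share is not an independent check.

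Of the list medians compared, 167 kept their sign and 21 turned, all close to 0 in the alternative. Without centring they became 0.0339 for Ras and MAP kinase feedback, 0.0519 for the receptor and striatin list, 0.0123 for smooth muscle, 0.0548 for extracellular matrix, 0.0416 for proteases, 0.041 for inflammatory genes, 0.059 for hypoxia, 0.0335 for Wnt, 0.0196 for TGF-beta, 0.0123 for dynein, 0.0323 for cytosolic ribosomal proteins and 0.0411 for histones. After quantile normalization the Ras list stood at 0.0106, the matrix list at 0.0151 and the hypoxia list at 0.0093. With the minimum in all groups the Ras list stood at 0.0092, the receptor list at 0.0007, the cardiac list, from which this minimum takes the genes high in 1 group alone, at 0.0451 and the blood list at 0.0427. The receptor list stood at 0.0119 with the mean over probe sets, and the mesothelial list at -0.0445 with no minimum. Without a minimum level the medians were also smaller for the airway (-1.10), cardiac (-1.08), interferon response (-0.54), iron-sulfur (0.08), tRNA (0.07) and cholesterol (0.07) lists.

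Of the named genes at an unadjusted p under 0.05, 8 lost that p without centring (Tnni3, Egr1, Jund, Gbp3, Trpv2, H2ac19, Rpl35 and Rps24) and 3 after quantile normalization. With the mean over probe sets 10 lost it (Canx, Gsr, Hspe1, Il17ra, Isca1, Mrpl15, Mrps24, Rpl35, Rps24 and Wwc2, at p between 0.098 and 0.636), and 15 other probe sets of these or further named genes missed it. Signs turned for Armcx3, at 0.0058 with the mean over probe sets and 0.63 at its other probe set, for Mrpl15 at 2 other probe sets (-0.0477 and -0.1087) and for Rps24 at 1 (0.0112). The cause of these changes was not tested.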

Other observations

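Lymphocyte genes past 2-fold, chosen after their values were seen, differed with wide errors. The immunoglobulin genes Ighm (3.23 ± 2.18) and Igkv8-30 (2.62 ± 1.81) were highest in DPM with E2, at levels of 7.36 and 5.61. Trbv1, a T cell receptor gene segment, had levels of 5.46 in DPM with E2 and 4.99 with vehicle, against 4.88 in WT with E2 and 6.21 with vehicle. Rag1, which cuts antigen receptor genes in developing lymphocytes, stood at 4.80 in DPM with E2 and 4.44 with vehicle, against 4.56 in WT with E2 and 5.41 with vehicle. Both were highest in WT vehicle, with differences of 1.74 ± 1.09 and 1.15 ± 2.10. None of these 4 had an unadjusted p under 0.05 by the recovered limma test.

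Edn2, Palm and Nt5c2 were also chosen after their values were seen. Edn2, which encodes endothelin 2, a vasoconstrictor peptide, reached the minimum in WT vehicle alone. Its levels were 2.81 in DPM with E2 and 3.15 with vehicle, against 3.50 in WT with E2 and 5.39 with vehicle, a difference of 1.49 ± 1.18. Palm, which encodes the membrane protein paralemmin, stood at 4.15 in DPM with E2 and 4.58 with vehicle, against 5.07 in WT with E2 and 4.18 with vehicle, a difference of -1.40 ± 0.44 (unadjusted p = 0.0176). Nt5c2, a nucleotidase gene, differed by 1.34 ± 0.49 (unadjusted p = 0.0313).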
